A study of Mus musculus with 4 samples.

Results

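The genes described here encode the WNT ligands, their receptors and co-receptors, the secreted proteins that block or enhance them, and the effectors that carry the signal to the nucleus. They were chosen by gene name from the annotation of the array, which gave 54 genes of the 30342 with a probe, on 69 probes. Of these, 43 passed the filter on dim probes, and each of these lay well above background in every mutant and every control pool. The other 11 were too dim to be measured.

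RNA came from microdissected mouse hearts at embryonic day 9.5. Mutant hearts were Nkx2.5Cre; Hdac3f/f, in which a Cre recombinase driven by the cardiac progenitor gene Nkx2.5 acts on a floxed Hdac3, the gene of a histone deacetylase. Control hearts were Hdac3f/f, from littermates, with no Cre stated, so that loss of Hdac3 and the presence of the Cre cannot be told apart. All groups carried the floxed allele on a mixed CD1/B6/129 background. On each of the 4 two-colour Agilent arrays, the RNA of 3 pooled mutant hearts was hybridised with that of 3 pooled control hearts. In such pools, fewer cells of a type and less RNA per cell cannot be told apart. With 4 arrays, precision is limited throughout.

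The direction of the ratios is not settled, and the one used here rests on the names of the authors' deposited columns. According to the labels, Cy5 marked the mutant pool each time. Those columns, named as mutant against wild type, ran with Cy5 over Cy3 on arrays 1 and 2 (slopes of 1.03 and 1.01 over bright probes) and with Cy3 over Cy5 on arrays 3 and 4 (slopes of -0.99 and -1.01). The deposited ratios of arrays 1 and 2 correlated at r = 0.565 over all probes and those of arrays 3 and 4 at 0.446, while all 4 pairs across were negative, between -0.418 and -0.0464. Read as Cy5 over Cy3, all 6 pairs of arrays were positive, between 0.239 and 0.553. Values below follow the deposited columns unless a sentence says "as labelled", which means mutant RNA read as Cy5 throughout. On arrays 1 and 2 both readings are the same.

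Some pools also stood apart from their labels as independent samples. The control signals of replicates 1 and 2 differed by a robust SD of 0.074 on the log2 scale, no more than repeated spots of a single array (0.0669 to 0.086). All other pairs of pools differed by at least 0.127, the value for the mutant pool of replicate 2 and the pool taken as control of replicate 3, which were both labelled with Cy5. The controls of replicates 1 and 2 are therefore counted as 1 RNA, which leaves 3 independent control RNAs against 4 mutant pools, and counts are also given with arrays 1 and 2 averaged (n = 3). The SDs, intervals and p values of single genes treat the 4 arrays as independent, so they may look more precise than the design allows. The mutant pool of replicate 3, which is the pool labelled control under the labelled dyes, differed from every other pool by 0.379 to 0.516. On that array 44 genes had a log2 ratio above 2, against at most 7 on any other array. Counts and medians of the WNT genes are given with and without it, as are the means of genes that it moved by over 1.5 times.

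The targeted gene was examined first. Hdac3 had processed signals of 305, 257, 531 and 344.5 in the mutant pools of replicates 1 to 4, against 362, 372, 758 and 780.0 in the control pools. The mutant pool was the lower one on all 4 arrays. Its log2 ratios were -0.22, -0.50, -0.52 and -1.15, with a mean of -0.60 ± 0.39 (SD, n = 4) and an adjusted p of 0.583 (limma). As labelled, the mean was 0.24, because on arrays 3 and 4 the channel labelled mutant was then the brighter one. No source used here places its probe inside or outside the floxed exons, so the probe may not measure the deletion.

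WNT ligands are secreted lipid-modified glycoproteins that bind Frizzled receptors. Together with the co-receptors Lrp5 and Lrp6, this recruits Dishevelled and Axin, frees beta-catenin (Ctnnb1) from a destruction complex built on Axin and Apc, and lets it act with the TCF and LEF factors on target genes. Other ligands, Wnt5a and Wnt11 among them, mainly act without beta-catenin, on cell polarity and movement. In the mouse heart, canonical WNT signals are known to sustain proliferation of second heart field progenitors, and the beta-catenin-independent branch is known for its part in outflow tract growth.

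Several results below turn on which probe was read, so the sequences of those probes are shown here as the array files give them, with mm9 positions and no annotation of exons. All probes are 60 bases long, and where fewer bases are shown the stretch is named. The letters are in lower case throughout, since no motif was searched.
The first probes belong to the ligands with the most positive mean ratios and to the Frizzled gene with the smallest unadjusted p.
Wnt6, chr1:74831461-74831520, plus strand, first 30 bases: ttcctcagaattactgggatggatgggtga
Wnt2, chr6:17938994-17939053, minus strand, first 30 bases: gagaatctgaaaggggaatggatgatctag
Fzd10, chr5:129109798-129109857, plus strand, first 30 bases: ttgactctctgaattgttaaacaaatgatt
The next are pairs of probes of 1 gene that gave different ratios, the brighter probe first in each pair. Of the 3 measured Tcf7l2 probes, the brightest and the dimmest are shown. The position given for the second Wnt4 probe spans more than its 60 bases.
Fzd7, chr1:59543192-59543251, plus strand, first 30 bases: aagggaaggtgaacttcaaagtgattctgg
Fzd7, chr1:59541367-59541426, plus strand: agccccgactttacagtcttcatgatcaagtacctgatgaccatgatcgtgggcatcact
Wnt4, chr4:136855342-136855401, plus strand, first 30 bases: tatgaggctccttggcattgtgacatcccc
Wnt4, chr4:136851690-136852258, plus strand: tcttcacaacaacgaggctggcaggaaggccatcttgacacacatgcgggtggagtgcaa
Lrp6, chr6:134400440-134400499, minus strand, first 30 bases: caaaggaaacaggaaaagaaaggcatcact
Lrp6, chr6:134404723-134404782, minus strand: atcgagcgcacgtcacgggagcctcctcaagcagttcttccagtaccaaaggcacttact
Tcf7l2, chr19:55994029-55994088, plus strand: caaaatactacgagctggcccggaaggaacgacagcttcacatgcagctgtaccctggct
Tcf7l2, chr19:56006638-56006697, plus strand, first 30 bases: tgttatgtagttcggatagcttagttttaa
The last is the only probe of Dvl3, of which 76.7% of the bases are G or C.
Dvl3, chr16:20531470-20531529, plus strand: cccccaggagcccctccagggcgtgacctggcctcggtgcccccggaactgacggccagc

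No WNT gene passed the test across all genes. With limma and Benjamini-Hochberg adjustment over 19702 genes, 0 of the 43 measured genes were called higher or lower at a threshold of 0.05, against a background of 0% in each direction, and the lowest adjusted p among them was 0.583. Without adjustment, at p below 0.05, 9 of the 43 were higher in the mutant pools (background 3.89%) and 2 were lower (background 4.59%). The 9 were Wnt6, Wnt2, Wnt4, Wnt9b, Fzd7, Fzd10, Fzd4, Dvl3 and Lef1, and the 2 were Wnt5a and Fzd6. The set was chosen with earlier results of these data known, and its genes share arrays. Counts beside a background, here and below, are therefore descriptions and no test of the set.

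The ratios were above 0 on all 4 arrays for 14 of 43 WNT genes (32.6%, against a background of 10%) and below 0 on all 4 for 3 (6.98%, against 9.74%). The first group held the ligands Wnt1, Wnt4, Wnt6 and Wnt9b, the receptors Fzd4, Fzd7, Fzd10, Lrp5 and Lrp6, the cytoplasmic genes Axin2 and Dvl3, and the nuclear factors Lef1, Tcf7l1 and Tcf7l2. The second held Wnt5a, Fzd1 and Fzd6. The mean ratio was above 0 for 27 genes and below 0 for 16, and the median over the 43 was 0.11, against 0.01 over all genes. On a single array, 50% to 51.5% of all genes lay above 0. Without replicate 3, 15 genes were above 0 on the remaining arrays (34.9%, background 13.9%) and 4 below (9.3%, background 13.9%), with a median of 0.06. At an unadjusted p below 0.05, 6 were then higher (background 2.8%) and 1 lower (background 3.26%). With arrays 1 and 2 averaged, 17 were above 0 (39.5%, background 15%) and 5 below (11.6%, background 14.1%), with a median of 0.14. In that fit 7 were higher (background 3.1%) and 1 lower (background 3.32%) at an unadjusted p below 0.05. The lowest adjusted p of a WNT gene was then 0.667 (limma).

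These counts depended on the direction. As labelled, 2 of the 43 genes were above 0 on all 4 arrays (4.65%, background 13.9%) and 5 were below (11.6%, background 13.9%), and the median was -0.06. As labelled, the fit called 342 of all genes higher (1.72%) and 25 lower (0.125%), and 0 WNT genes in either direction. At an unadjusted p below 0.05, 3 WNT genes were then higher (background 8.43%) and 6 lower (background 7.69%). Of the 17 genes with 1 sign on all arrays in the deposited direction, 5 had a mean of the same sign as labelled and 12 of the opposite sign. The 5 were Wnt4, Wnt5a, Wnt6, Fzd4 and Fzd7. The labelled reading only turns the sign of arrays 3 and 4. A gene of 1 sign therefore keeps it where arrays 1 and 2 outweigh arrays 3 and 4, which is no separate check of the gene. On arrays 1 and 2 alone, where the readings do not differ, 18 WNT genes were above 0 on both (41.9%, background 36.5%) and 11 below on both (25.6%, background 35.8%), with a median of 0.07. At an unadjusted p below 0.05, 8 of them were higher (background 14.4%) and 4 lower (background 12.8%), and 0 were called, against 2.14% of all genes higher and 0.518% lower. These arrays are counted as sharing a control RNA and so are not taken as independent, and their ratios correlated at r = 0.565.

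The 4 arrays did not carry equal weight. The median ratio of the 43 genes was 0.02 on array 1, 0.07 on array 2, 0.31 on array 3 and 0.07 on array 4, against 0, 0.003, 0.01 and 0.003 over all genes. Array 3 gave the highest of the 4 ratios for 23 of the 43 WNT genes, and for 32.8% of all genes. The plot of ratios by array shows the spread of each gene.

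**Figure D1:**
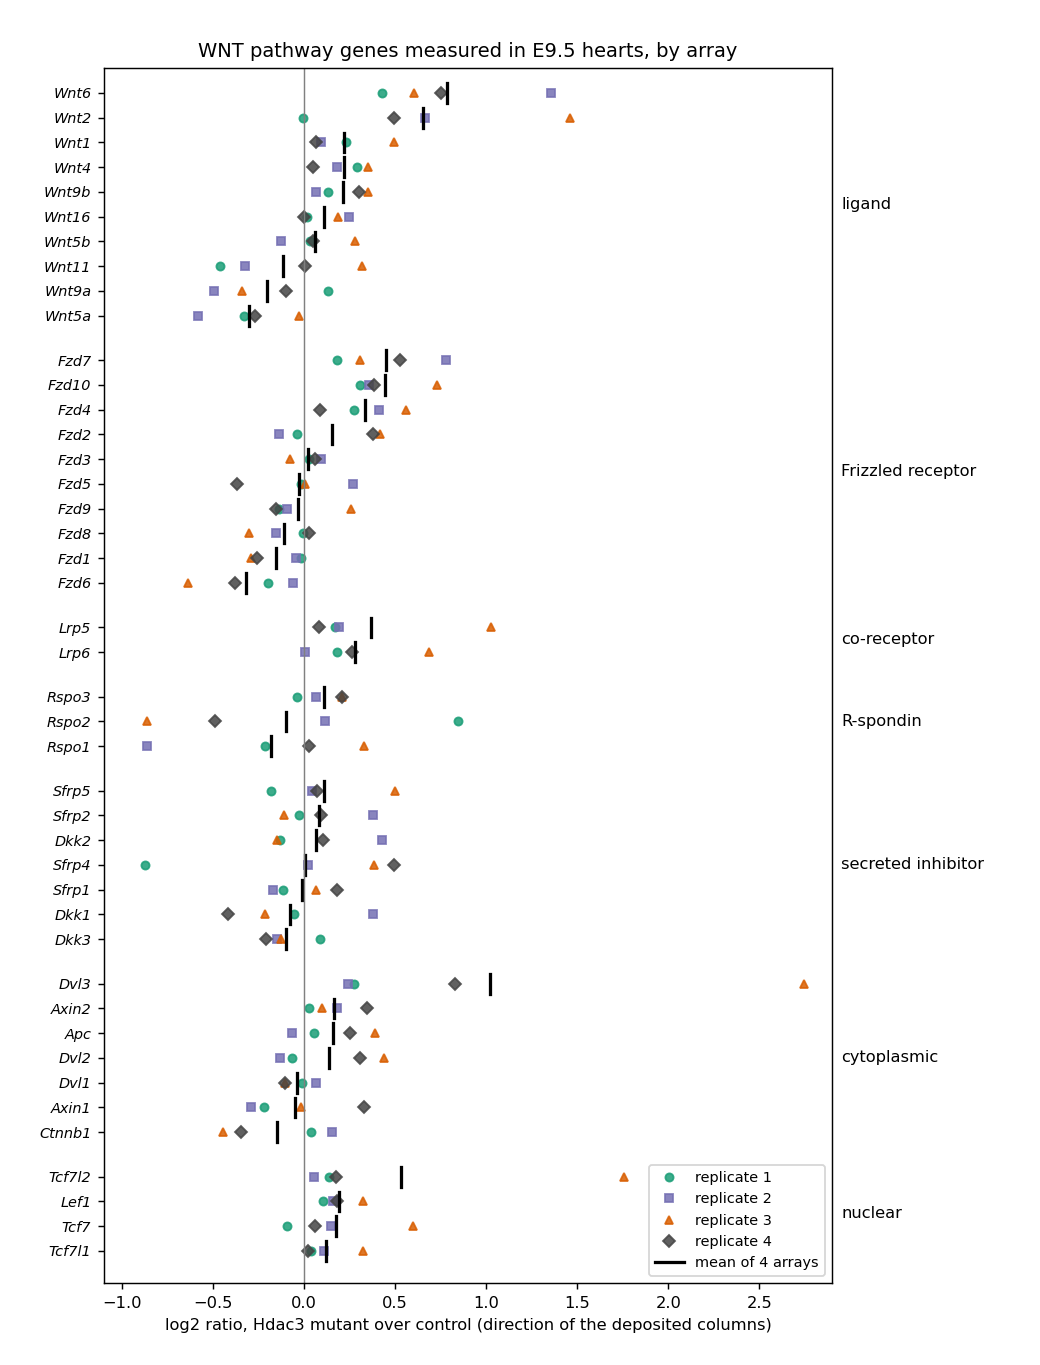
Log2 ratio of mutant over control (horizontal axis) on each of the 4 arrays for the 43 measured WNT genes, grouped by role and ordered by mean within a role. Symbols are arrays and the vertical bar is the mean of 4. Replicate 3 lies far to the right for Dvl3 (2.74), Tcf7l2 (1.76), Wnt2 (1.46) and Lrp5 (1.03), and the 4 arrays of each secreted inhibitor fall on both sides of 0. Of all genes, 10% were above 0 on every array and 9.74% below.

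Among the 19 ligands, 10 were measured, 7 with a mean above 0 and 3 below. The median of the 10 was 0.16, against -0.08 as labelled and 0.11 without replicate 3. Wnt6, a ligand that restricts heart muscle formation in frog embryos, had the most positive mean of the ligands. Its processed signals were 103, 217, 473 and 467 in the mutant pools of replicates 1 to 4, against 68.0, 71.4, 299 and 284 in the control pools. The mutant pool was brighter on all 4 arrays, although the signals of the groups overlapped across arrays, since both pools of arrays 3 and 4 were brighter than either control of arrays 1 and 2. The log2 ratios were 0.43, 1.36, 0.61 and 0.75, with a mean of 0.79 ± 0.40 (SD, n = 4), a 1.72-fold difference (95% interval 0.41 to 1.16 on the log2 scale). The adjusted p was 0.583 (limma), and Wnt6 stood at rank 63 of all genes by unadjusted p. As labelled its mean was 0.11, and without replicate 3 it was 0.85. With arrays 1 and 2 averaged (n = 3) the mean was 0.75, with an adjusted p of 0.667 (limma).

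Wnt2, a ligand made in the mouse posterior second heart field and its atrial derivatives, had a larger spread. Its signals were 139.8, 234, 794 and 360.3 in the mutant pools, against 138.7, 139.7, 270.0 and 260.5 in the control pools. The pools of replicate 1 differed little, while the mutant pool was the brighter one on the other arrays and most of all on array 3. This gave log2 ratios of -0.006, 0.66, 1.46 and 0.49, with a mean of 0.65 ± 0.61 (SD, n = 4) and an adjusted p of 0.583 (limma). Without replicate 3 the mean was 0.38, and as labelled it was -0.32.

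Wnt5a, a ligand of the beta-catenin-independent branch that is needed for outflow tract septation in mice, had the most negative mean of the ligands. Its signals were 787, 758, 1255 and 1384 in the mutant pools, against 976, 1141, 1279.7 and 1656 in the control pools. The mutant pool was dimmer on every array, by the least on array 3. In log2 terms the ratios were -0.33, -0.59, -0.03 and -0.27, with a mean of -0.30 ± 0.23 (SD, n = 4), or 0.81 on the linear scale. Its adjusted p was 0.585 (limma). As labelled the mean was -0.15, and without replicate 3 it was -0.40.

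The ligands Wnt4, Wnt1 and Wnt9b were also above 0 on all arrays, at smaller means. Wnt4, best known from kidney and gonad development, had log2 ratios of 0.29, 0.18, 0.35 and 0.05 (mean 0.22). Wnt1, known from midbrain and neural crest, had 0.23, 0.09, 0.49 and 0.07 (mean 0.22). Wnt9b, known from kidney tubules, had 0.13, 0.07, 0.35 and 0.30 (mean 0.21). The Wnt9b probe was dim, with signals of 21.7 to 39.6 in the mutant pools and 17.7 to 26.5 in the control pools, and its mean was 0.03 when the ratios were recomputed from the scanner intensities. As labelled, the means were 0.02 for Wnt4, -0.06 for Wnt1 and -0.11 for Wnt9b. Without replicate 3 the mean of Wnt1 was 0.13.

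The remaining measured ligands had arrays on both sides of 0. Wnt11, which acts with Wnt5a in the mouse outflow tract, had log2 ratios of -0.46 and -0.33 on arrays 1 and 2, against 0.32 and 0.003 on arrays 3 and 4. Its mean was -0.12, against -0.28 as labelled and -0.26 without replicate 3. Wnt9a had a mean of -0.20, Wnt5b of 0.06 (-0.02 without replicate 3) and Wnt16 of 0.11. The 9 ligands that were not measured were Wnt2b, Wnt3, Wnt3a, Wnt7a, Wnt7b, Wnt8a, Wnt8b, Wnt10a and Wnt10b, each well above background in at most 1 of the 4 mutant pools and at most 2 of the 4 control pools.

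**Figure D2:**
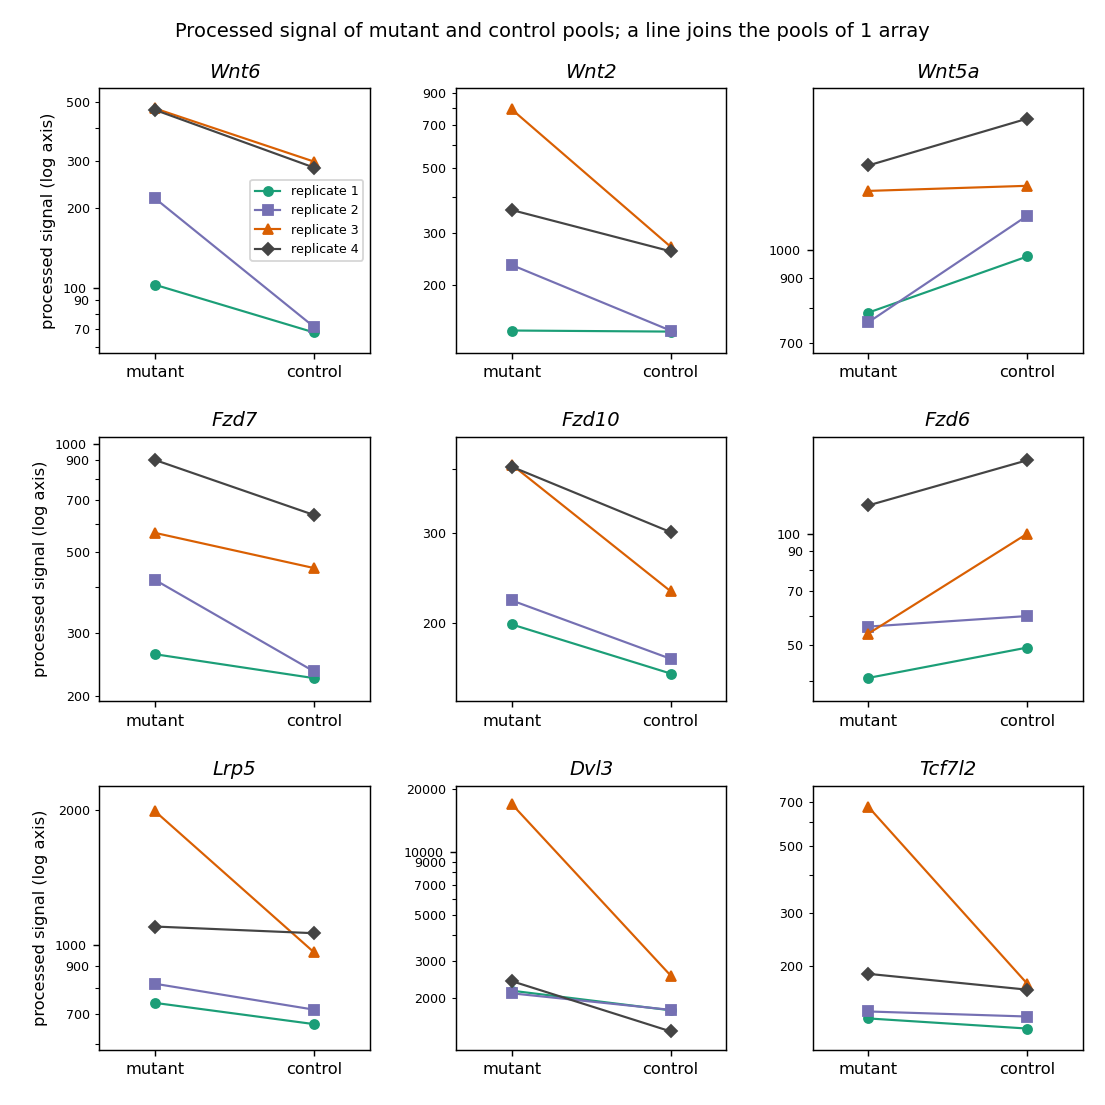
Processed signal (vertical log axis, arbitrary units) of the mutant pool (left) and the control pool (right) of each array for 9 WNT genes, with a line joining the pools of 1 array. Mutant pools lie above their controls on every array for Wnt6, Fzd7, Fzd10, Lrp5, Dvl3 and Tcf7l2 and below them for Wnt5a and Fzd6, and the control points of replicates 1 and 2 nearly coincide for most genes.

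All 10 Frizzled genes, which encode seven-pass receptors of the WNT ligands, were measured, 5 with a mean above 0 and 5 below. Their median was -0.003, against 0.03 as labelled and 0.009 without replicate 3, but they ranged from -0.32 to 0.45. Fzd7, a receptor of both branches, had the most positive mean. Its signals were 261, 419.7, 566 and 901 in the mutant pools, against 224, 234, 453 and 635 in the control pools. The mutant pool was brighter on each array, with log2 ratios of 0.18, 0.78, 0.31 and 0.53 and a mean of 0.45 ± 0.26 (SD, n = 4), a 1.36-fold difference, and an adjusted p of 0.583 (limma). As labelled the mean was 0.03.

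Fzd7 also showed how far a value can rest on its probe. The second measured probe of Fzd7 gave log2 ratios of 0.04, -0.02, 0.36 and 0.17, with a mean of 0.14. The mean of both probes was 0.29. The Fzd7 probes disagreed most on array 2, where the brighter one gave 0.78.

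Fzd10, a receptor linked to canonical signalling, was above 0 by 0.31 or more on every array. Its signals were 199, 221, 408 and 404 in the mutant pools, against 159, 170.4, 231 and 301 in the control pools. Its log2 ratios were 0.31, 0.36, 0.73 and 0.38, with a mean of 0.44 ± 0.19 (SD, n = 4) and an adjusted p of 0.583 (limma). As labelled the mean was -0.11, and without replicate 3 it was 0.35. Fzd4, the receptor of Norrin and known from blood vessels, had log2 ratios of 0.28, 0.41, 0.56 and 0.09, with a mean of 0.33 ± 0.20 (SD, n = 4), and 0.01 as labelled.

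Fzd6 and Fzd1 were below 0 on all arrays. Fzd6, a receptor of the planar cell polarity pathway, had signals of 40.7, 56.1, 53.7 and 119.5 in the mutant pools, against 49.2, 59.9, 100.2 and 158.5 in the control pools. Its log2 ratios were -0.20, -0.06, -0.64 and -0.38, with a mean of -0.32 ± 0.25 (SD, n = 4) and an adjusted p of 0.585 (limma). The largest difference in Fzd6 was on array 3, and its mean was -0.21 without that array and 0.19 as labelled. Fzd1 had log2 ratios of -0.02, -0.05, -0.29 and -0.26, with a mean of -0.15, and 0.12 as labelled. Of the others, Fzd2 had a mean of 0.15, Fzd3 of 0.02, Fzd5 of -0.03, Fzd8 of -0.11 and Fzd9 of -0.03. Without replicate 3, Fzd2 stood at 0.07, Fzd3 at 0.06, Fzd8 at -0.04 and Fzd9 at -0.13, and as labelled Fzd2 stood at -0.24.

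Both co-receptors, the single-pass LDL receptor relatives Lrp5 and Lrp6, were above 0 on every array. Lrp5 had signals of 743, 819.5, 1987 and 1099 in the mutant pools, against 666, 718, 963 and 1062 in the control pools. Its log2 ratios were 0.17, 0.19, 1.03 and 0.08, with a mean of 0.37 ± 0.44 (SD, n = 4) and an adjusted p of 0.6003 (limma). The mean was 0.15 without replicate 3, so array 3 decided its size, and -0.19 as labelled. Lrp6 had log2 ratios of 0.18, 0.002, 0.68 and 0.26, with a mean of 0.28 ± 0.29 (SD, n = 4). The Lrp6 mean was 0.15 without replicate 3 and -0.19 as labelled, and the second probe gave a mean of 0.01, with arrays on both sides of 0. The median of the co-receptors was 0.32, against -0.19 as labelled and 0.15 without replicate 3.

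The R-spondins, secreted proteins that enhance WNT signals by keeping Frizzled receptors at the cell surface, had means on both sides of 0. Rspo2 had log2 ratios of 0.84, 0.11, -0.87 and -0.49, with a mean of -0.10. As labelled its mean was 0.58, the most positive of the 43 genes under that reading, and without replicate 3 it was 0.16. Rspo1 had a mean of -0.18 (-0.35 without replicate 3), and Rspo3 of 0.11 ± 0.12 (SD, n = 4). The median of the 3 measured R-spondins was -0.10, against -0.10 as labelled and 0.08 without replicate 3. Rspo4 was not well above background in any pool.

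The secreted inhibitors comprise the Dkk proteins, most of which bind Lrp5 and Lrp6, and the Sfrp proteins, which bind the ligands. Of 8 on the array 7 were measured, 4 with a mean above 0 and 3 below, and 0 had 1 sign on all arrays. Of all genes, 10% were above 0 on every array and 9.74% below, and 7 genes are too few to set apart from these shares. Their median was 0.006, against 0.07 as labelled and -0.03 without replicate 3. Dkk1 had log2 ratios of -0.05, 0.38, -0.21 and -0.42 (mean -0.08), and Sfrp5, a marker of the mouse sinus venosus, had -0.18, 0.04, 0.50 and 0.07 (mean 0.11). The means of the others lay between those of Dkk3 (-0.10) and Sfrp2 (0.08), and their adjusted p values, with those of Dkk1 and Sfrp5, lay between 0.705 and 0.995 (limma). Sfrp4 had the largest spread among them, with -0.88 on array 1 and 0.49 on array 4. Without replicate 3 the means were -0.03 for Dkk1, 0.13 for Dkk2, -0.04 for Sfrp1, 0.15 for Sfrp2, -0.12 for Sfrp4 and -0.02 for Sfrp5. Dkk4 was not measured.

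Of the 7 cytoplasmic genes, 4 had a mean above 0 and 3 below, with a median of 0.14, against -0.16 as labelled and 0.04 without replicate 3. Dvl3, which encodes a Dishevelled scaffold protein, had the most positive mean of all 43 genes. Its signals were 2172.5, 2110.4, 17031 and 2414 in the mutant pools, against 1749.6, 1758, 2568 and 1386 in the control pools. The mutant pool of replicate 3 lay far above the other pools, and the mutant pool was the brighter one on every array. The log2 ratios were 0.27, 0.24, 2.74 and 0.83, with a mean of 1.02 ± 1.18 (SD, n = 4) and an adjusted p of 0.585 (limma). Without replicate 3 the mean was 0.45, and as labelled it was -0.77. The other Dishevelled genes had means of -0.04 (Dvl1) and 0.14 (Dvl2). Without replicate 3 Dvl1 stood at -0.02 and Dvl2 at 0.04, and as labelled Dvl1 stood at 0.07 and Dvl2 at -0.24.

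The Dvl3 probe was the only one of the 43 with over 65% G and C, and on array 3 the ratios of all genes went with base composition. Over all 19702 genes, the array 3 ratio and the G and C content of the probe correlated at r = 0.186, against 0.0196, -0.0071 and 0.113 on arrays 1, 2 and 4. The 70 genes with probes above 65% had a median of 0.39 on array 3, against 0.07, -0.003 and 0.18 on the others. Over the 43 WNT genes the array 3 correlation was r = 0.472, and 0.162 without Dvl3. These are correlations across genes, which share arrays and are not independent, and the part of base composition in the Dvl3 value was not tested.

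**Figure D3:**
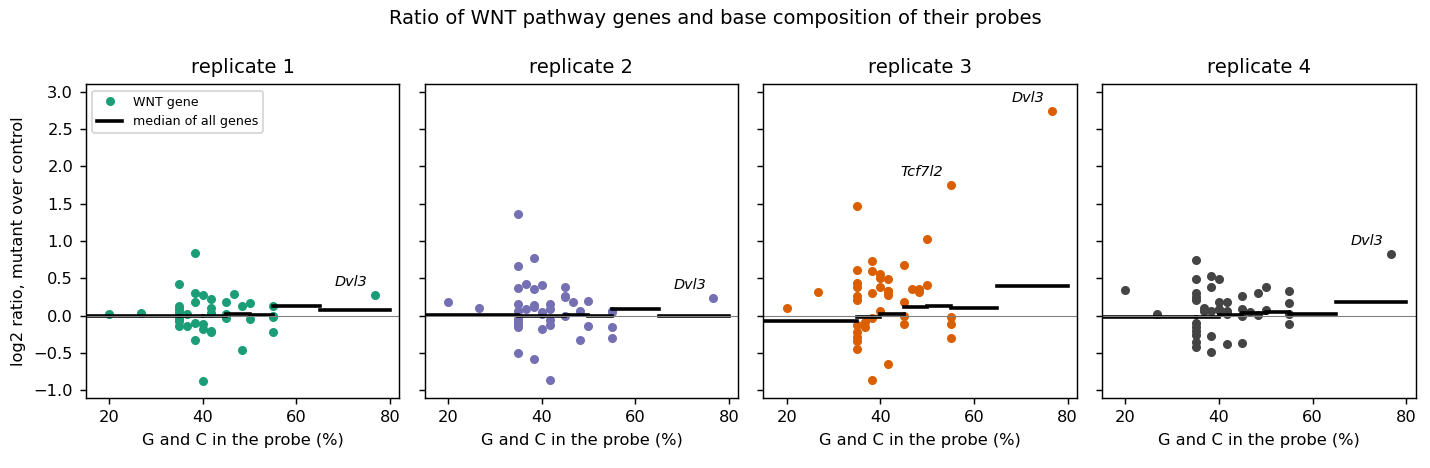
Log2 ratio of mutant over control (vertical axis) against the percent of G and C in the probe (horizontal axis), 1 panel per array. Points are the 43 WNT genes and black segments are medians of all genes within ranges of base composition. The segments of array 3 lie below 0 under 40% G and C and above 0 beyond it, and Dvl3 stands at 2.74 there.

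Axin2, a scaffold of the destruction complex that beta-catenin induces and that is widely used as a readout of canonical signalling, was above 0 on all arrays. Its signals were 62.7, 76.6, 105.98 and 116 in the mutant pools, against 60.2, 65.3, 96.9 and 91.2 in the control pools. This gave log2 ratios of 0.02, 0.18, 0.10 and 0.34, with a mean of 0.16 ± 0.14 (SD, n = 4), an interval of -0.04 to 0.36 and an adjusted p of 0.612 (limma). As labelled the mean was -0.06.

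Ctnnb1, which encodes beta-catenin itself, differed between the array pairs. Its signals were 7762, 8829.8, 9209 and 13286 in the mutant pools, against 7434.5, 7846, 12903 and 17467 in the control pools. The log2 ratios were 0.04 and 0.15 on arrays 1 and 2 and -0.45 and -0.35 on arrays 3 and 4, with a mean of -0.15 ± 0.29 (SD, n = 4). As labelled, the mean was 0.25, and without replicate 3 it was -0.05. Apc, the core scaffold of the destruction complex, had a mean of 0.16, against -0.16 as labelled and 0.08 without replicate 3. Axin1 had a mean of -0.05.

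All 4 nuclear factors had a mean above 0, with a median of 0.18, against -0.11 as labelled and 0.09 without replicate 3. Lef1, a beta-catenin partner and itself a target of the pathway, had signals of 1975, 2186, 3832 and 3211.5 in the mutant pools, against 1873, 1949, 3057.5 and 2898 in the control pools. Its log2 ratios were 0.10, 0.16, 0.33 and 0.18, with a mean of 0.19 ± 0.09 (SD, n = 4), a 1.14-fold difference, and an adjusted p of 0.585 (limma). The second Lef1 probe gave a mean of 0.20 but -0.10 on array 4. As labelled the Lef1 mean was -0.06.

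Tcf7l2 showed the largest disagreement between probes. Its signals were 135, 142, 674 and 189 in the mutant pools, against 125, 137, 175 and 167.5 in the control pools. The log2 ratios were 0.13, 0.06, 1.76 and 0.18, with a mean of 0.53 ± 0.82 (SD, n = 4) and an adjusted p of 0.623 (limma). The mutant pool of replicate 3 stood apart from the other pools on this probe. On the other 2 measured probes of Tcf7l2, array 3 gave 0.35 and 0.29, and the means were 0.08 and 0.05. Without replicate 3 the mean of the brightest probe was 0.12, and as labelled it was -0.44. Tcf7l1, which mainly represses targets, had a mean of 0.12 (0.06 without replicate 3), and Tcf7, whose arrays fell on both sides of 0, of 0.18 (0.04 without replicate 3).

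In all, 9 WNT genes had several measured probes, and for 3 of these, Fzd5, Tcf7 and Wnt4, the means of the probes had opposite signs. The second Wnt4 probe gave log2 ratios of 0.02, -0.13, -0.08 and -0.21, with a mean of -0.10. It was the dimmer probe, with a mean signal of 77.5 against 976 for the one used. With the measured probes of a gene averaged, 12 of 43 genes were above 0 on every array (27.9%) and 3 below (6.98%), with a median of 0.07. The backgrounds of 10% and 9.74% are those of the brightest probes, and none was counted for averaged probes.

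**Figure D4:**
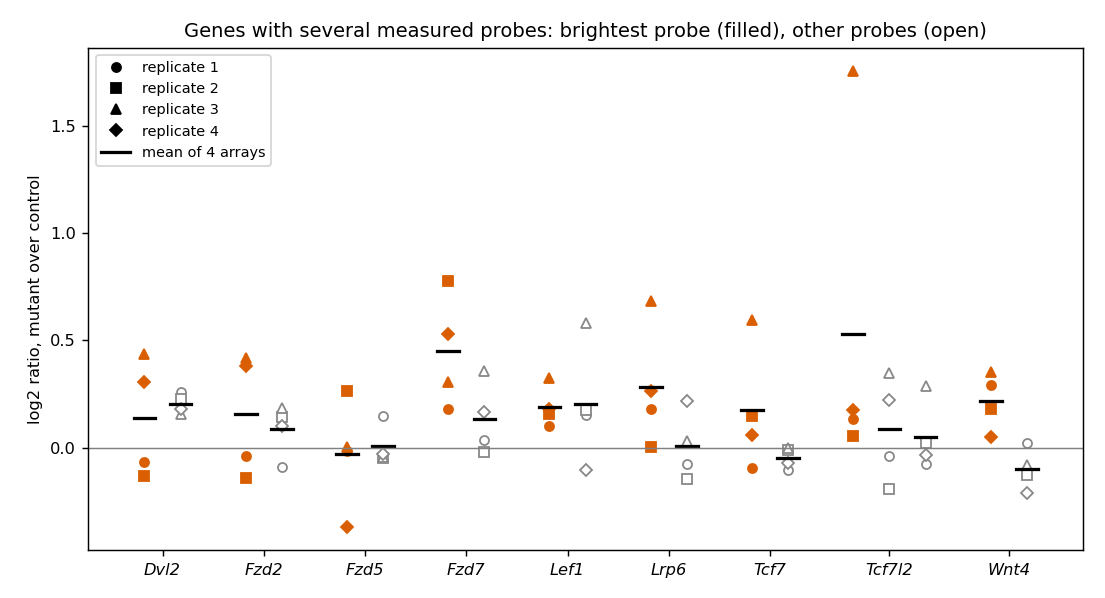
Log2 ratio of mutant over control (vertical axis) on each array for the 9 WNT genes with several measured probes. Filled symbols are the brightest probe and open symbols the others, and bars are means of 4 arrays. The Tcf7l2 value of 1.76 on replicate 3 appears on 1 of its 3 probes, and the Fzd7 and Lrp6 means are nearer 0 on the second probe.

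The plot of both readings of the dyes shows which genes keep their sign. Dvl3, Tcf7l2 and Wnt2, whose ratios were largest on array 3, had means of opposite sign under the readings. Wnt6 and Wnt5a, whose ratios were as large or larger on array 2, did not. Fzd4 and Wnt4 were also largest on array 3 but kept their sign, with means near 0 as labelled (0.01 and 0.02).

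**Figure D5:**
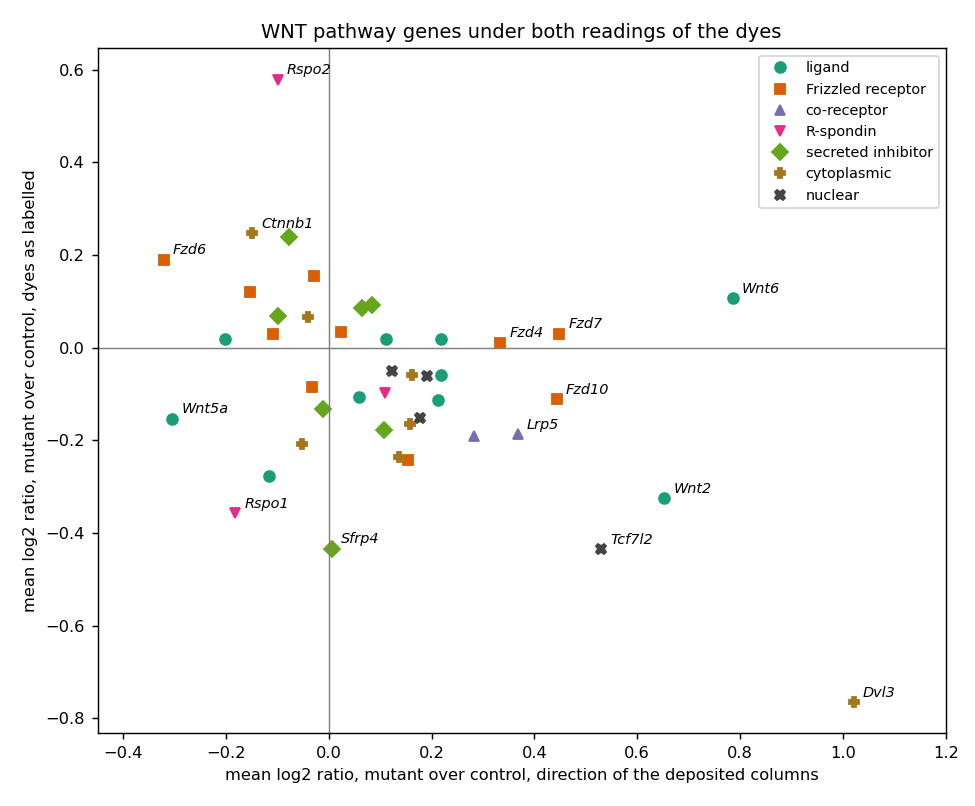
Mean log2 ratio of mutant over control over 4 arrays, in the direction of the deposited columns (horizontal axis) and as labelled (vertical axis), for the 43 measured WNT genes, with a symbol per role. Wnt6 lies in the upper right (0.79 and 0.11), Wnt5a in the lower left (-0.30 and -0.15), and Dvl3 (1.02 and -0.77), Tcf7l2 (0.53 and -0.44) and Wnt2 (0.65 and -0.32) in the lower right.

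Other genes of the pathway were taken from 7 lists, and 0 of their genes passed the test, so only counts at an unadjusted p below 0.05 follow, against a background of 3.89% of all genes higher and 4.59% lower. Among 6 genes for secretion and turnover of ligands, 1 was higher and 1 lower. They were Trabd2b, which encodes a protease that cleaves WNT ligands, with a mean log2 ratio of 0.51 and one sign on all arrays, and Wls, the carrier that brings ligands to the cell surface, with -0.28. As labelled both were near 0, at 0.00075 and -0.02. The third by p was Gpc3, a glypican that binds ligands, with 0.24 (0.08 without replicate 3).

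Among 9 other receptors and regulators of receptor turnover, 1 was lower, the Wnt5a receptor Ror1, with a mean of -0.25 and -0.11 as labelled. Ptk7, a co-receptor of planar cell polarity, had 2.28 on array 3 against at most 0.41 on the others, with a mean of 0.80 and 0.31 without replicate 3, and Ryk, a receptor of the kinase family without kinase activity, had a mean of -0.09. Among 7 genes listed as other secreted inhibitors, 2 were higher, Dkkl1 (mean 0.31) and the Lrp5 and Lrp6 antagonist Sost (0.20). Frzb, a ligand-binding relative of the Sfrp genes, had -0.20. Among 12 destruction complex genes and kinases, 2 were higher, the kinase Gsk3b (0.26) that marks beta-catenin for degradation and the tankyrase Tnks (0.35) that turns over Axin. Gsk3a had 0.16.

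Among 13 nuclear cofactors, 1 was higher, the Groucho co-repressor Tle3 (0.35), whose mean as labelled was -0.24. Tle4 had -0.18, and Bcl9, which tethers co-activators to beta-catenin, had 0.32 with 1.15 on array 4. Without replicate 3 Tle3 stood at 0.21. Among 11 planar cell polarity genes, 0 passed in either direction, with means of -0.16 for Celsr1, 0.21 for Prickle1 (0.13 without replicate 3) and 0.19 for Vangl2 (0.02). Among 17 genes known as beta-catenin targets in some tissue, 2 were higher, the transcription factor genes Sp5 (0.34) and Tbx3 (0.35, and 0.19 without replicate 3). Isl1, a second heart field factor, had 0.18. The medians of the 7 lists ran from -0.03 to 0.12, against 0.01 over all genes.

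Marker genes of several cell types of the region also had medians away from 0, and their part in the WNT values was not tested. The backgrounds of 3.89% higher and 4.59% lower hold for these counts too. Of 11 measured second heart field markers, 5 were higher at an unadjusted p below 0.05 and 8 had a mean above 0, with a median of 0.25 and 0.06 as labelled, but their summed signal was higher in the mutant pool on only 2 of 4 arrays (15560 to 22910 in mutant pools, 10660 to 28020 in control pools). Of 10 primitive erythroid markers, 5 were lower, with a median of -0.38 and 0.04 as labelled. The summed erythroid signal was 225800 to 366100 in mutant pools against 335900 to 467100 in control pools, higher in the mutant pool on 1 of 4 arrays. Of 10 endocardial markers 4 were higher and 1 lower (median 0.19, and -0.03 as labelled). Their summed signal was 9260 to 26400 in mutant pools against 8248 to 13980 in control pools, higher in 4 of 4. Of 9 epicardial markers, 1 was higher and 2 lower (median -0.12, and -0.03 as labelled), with a summed signal higher in the mutant pool on 1 of 4 arrays. Of 12 foregut and liver markers 5 were measured, of which 3 were higher and 0 lower, with a median of 0.23 in either reading and a summed signal of 635.7 to 881.4 in mutant pools against 419.5 to 892.7 in control pools, higher in 2 of 4. Foxa1, Shh, Hnf4a and Alb were among the 7 not measured. Of 9 neural markers 3 were measured, with 0 passing, a median of 0.16 (-0.05 as labelled) and a summed signal of 146.7 to 321.4 in mutant pools against 122.4 to 220.6 in control pools, higher in 4 of 4. The 10 cardiomyocyte markers were all measured (median 0.02, and 0.22 as labelled), and 0 passed in either direction. Their summed signal was higher in the mutant pool on 1 of 4 arrays. In replicates 2 to 4 the description field speaks of embryonic stem cells where titles and sources name hearts. Of 9 stem cell markers, Pou5f1 and Sox2 were not well above background often enough to be measured while the other 7 were, 2 of them higher and 1 lower (median 0.07, and -0.02 as labelled). The summed signal of the 7 was 2319 to 5378 in mutant pools against 2272 to 3318 in control pools, higher in 4 of 4.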

How the data were processed

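Per the file headers, the authors scanned 4 two-colour arrays, all on 1 slide, and deposited spot, background and processed intensity values of both dyes, with a log10 ratio, made by Agilent Feature Extraction 11.5.1.1. Version 8.5.1.1 is given in the submitters' processing notes. The authors also deposited log2 ratios whose normalization no source used here gives, with column medians of -0.027, -0.017, 0.021 and 0.025. Their direction was found by setting each column against the scanner ratio of probes with both mean intensities above 2000. The processed intensity signals were already background-subtracted and dye-normalized, per the file headers, and are not scaled between arrays.

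The deposited log2 ratios were matched to the 39429 probes by probe name. Genes were named by RefSeq accession for 27508 probes and by the files' own symbol otherwise. Probes entered the fit if every mutant pool or every control pool was well above background, and the brightest such probe stood for its gene. The share of probes well above background was 66.6% to 71.2% in a channel. The test was limma's moderated test of the mean ratio against 0 (limma 3.58.1, R 4.3.3), with Benjamini-Hochberg adjustment over 19702 genes and a threshold of 0.05. No WNT spot was saturated. Each array holds both pools, so the ratio itself is the block. The steps were tested on simulated data.

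The WNT genes and all gene lists were chosen with earlier results of these data known. Genes named were Hdac3, Wnt2, Fzd7, Wnt5a, WNT genes of 1 sign on all arrays, Axin2, Lef1, Ctnnb1 and up to 3 genes of smallest unadjusted p per pathway list, and other WNT genes once by role. Rspo2, Wnt11, Dkk1, Sfrp4 and Sfrp5 were singled out after their values were seen. Alternatives were the scanner ratios (normexp with offset 50 and loess), Agilent's own ratio, the labelled dyes, other filters, probe averaging, centring, a dye term, no block and each array left out. Averaging arrays 1 and 2 was added after seeing the data.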

Additional observations from a re-analysis of the deposited data

Results flagged for a closer look

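In 44 checks of the 4 log2 ratios of a gene (the 43 measured WNT genes and Hdac3), 3 genes had 1 array far from the other 3, and in all 3 it was replicate 3. Chance alone would mark about 1 in 20 such groups, and 3 of 44 is near that share. How often this rule marks a gene among all genes was not counted. Tcf7l2 had 1.756 on that array, against 0.06 to 0.18 on the others, with a gap of 0.929 of its whole range. Lrp5 had 1.028, against 0.08 to 0.19, with a gap of 0.883. Fzd9 had 0.258, against -0.15 to -0.09, with a gap of 0.856. The mutant pool of replicate 3 also stood farthest from the other pools over all bright probes, and whether these values come from that pool as a whole was not tested.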

How the results depend on the processing

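Over every alternative run, 0 WNT genes were called, so the settings differ in counts and signs only. As labelled, 342 of all genes were called higher and 25 lower, 2 WNT genes were above 0 and 5 below on every array, the WNT median was -0.061, and Hdac3 turned to 0.24. The signs of 29 measured WNT genes also turned as labelled, to -0.16 for Apc, -0.059 for Axin2, 0.25 for Ctnnb1, 0.24 for Dkk1, 0.069 for Dkk3, 0.066 for Dvl1, -0.24 for Dvl2 and Fzd2, -0.77 for Dvl3, 0.12 for Fzd1, -0.11 for Fzd10, 0.15 for Fzd5, 0.19 for Fzd6, 0.0295 for Fzd8, -0.061 for Lef1, -0.19 for Lrp5 and for Lrp6, 0.58 for Rspo2, -0.098 for Rspo3, -0.43 for Sfrp4, -0.18 for Sfrp5, -0.15 for Tcf7, -0.051 for Tcf7l1, -0.44 for Tcf7l2, -0.06 for Wnt1, -0.32 for Wnt2, -0.11 for Wnt5b, 0.0195 for Wnt9a and -0.11 for Wnt9b. Of the pathway lists, they turned to -0.16 for Gpc3, -0.54 for Ptk7, 0.10 for Ryk, -0.0058 for Sost, 0.10 for Frzb, -0.037 for Gsk3b, -0.001 for Gsk3a, -0.24 for Tle3, 0.10 for Tle4, -0.31 for Bcl9, 0.073 for Celsr1, -0.19 for Prickle1, -0.22 for Vangl2, -0.045 for Sp5 and -0.19 for Tbx3. On arrays 1 and 2 only, counted as sharing a control RNA, 437 genes were called higher and 106 lower, and 11 WNT genes were below 0 on both arrays. In that setting Apc (-0.0065), Ctnnb1 (0.097), Dkk1 (0.16), Dvl1 (0.026), Dvl2 (-0.098), Fzd2 (-0.089), Fzd5 (0.13), Rspo2 (0.48), Sfrp4 (-0.43), Sfrp5 (-0.069), Wnt5b (-0.048), Ryk (0.0025) and Vangl2 (-0.03) changed sign. With arrays 1 and 2 averaged, 5 WNT genes were below 0, and Axin1 (0.018) and Sfrp1 (0.032) changed sign. Leaving out each replicate gave 0 to 2 genes called higher (2 without replicate 1), 4 to 5 WNT genes below 0 and 15 to 19 above 0 on every remaining array. Fewer arrays then had to share a sign. Without replicate 3 the share of all genes was 13.9% above and 13.9% below, against 10% and 9.74% on 4 arrays. No such share was counted without replicates 1, 2 or 4, so the counts for those settings have no background. Over the replicates left out, 12 WNT genes changed sign, with means of -0.18 to 0.02967 for Axin1, -0.23 to 0.036 for Dkk1, -0.058 to 0.13 for Dkk2, -0.13 to 0.084 for Fzd5, -0.13 to 0.0077 for Fzd9, -0.35 to 0.045 for Rspo1, -0.41 to 0.16 for Rspo2, -0.075 to 0.042 for Sfrp1, -0.015 to 0.15 for Sfrp2, -0.16 to 0.3003 for Sfrp4, -0.022 to 0.21 for Sfrp5 and -0.016 to 0.12 for Wnt5b. The cause of these differences was not tested.

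With no replicate block, 0 genes were called, and the WNT median was 0.08 and the Hdac3 mean -0.56 (adjusted p = 0.976, limma). In that setting 12 WNT genes were above 0 on every array (27.9%) and 4 below (9.3%), with no background counted for it. Under Agilent's ratio Sfrp4 changed sign (-0.041). Under the scanner ratios, both other filters, probe averaging, centring and the dye term, no measured WNT gene and no named pathway gene changed sign. With the dye term, 1424 genes had an unadjusted p below 0.05 and were higher, and 1588 lower, against 766 and 904 without it. The arrays' number and the dimness of probes such as Wnt9b limit what can be resolved.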
